A study of Homo sapiens with 6 samples.

Results

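The genes described here were 10 transcription factors of the myeloid lineage, *SPI1*, *CEBPA*, *CEBPB*, *CEBPD*, *CEBPE*, *IRF8*, *KLF4*, *GFI1*, *RUNX1* and *MYB*. They were chosen by name for their known roles, with earlier results of these data known, and all 10 were found among the 20348 genes of the deposited table. The cells were MV4-11, an established human acute myeloid leukemia (AML) line of monocytic type, given 1 μM WNK463 for 48 h (WNK463 group) or left untreated as a blank control for the same time (Ctrl group), with 3 samples in each. WNK463 inhibits the kinases of the WNK family, and the experiment asked which transcripts differ in cells exposed to it. Bulk RNA was sequenced, and total counts lay between 14915745 and 17411780 per sample. All samples came from a single line and a single dose and time, and the sources do not say whether the 3 samples of a group were separate cultures, so the spread between them may be technical.

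Blood cells of the myeloid lineage arise from progenitors under the control of a small set of factors that bind DNA and also regulate each other. PU.1, the product of *SPI1*, and the C/EBP factors open and activate myeloid genes, IRF8 and KLF4 favour monocytes, and GFI1 is a repressor that favours neutrophils. RUNX1 and MYB act earlier, in stem and progenitor cells, and many AML cells depend on MYB. Relative amounts of these factors are known to matter for which cell is formed, so levels, order and ratios are given below as well as differences between groups.

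The regions just before the starts of 4 genes with different transcript counts after WNK463 are shown first, because they carry the sequence context of a lower gene (*MYB*) and of 3 higher ones (*RUNX1*, *CEBPA*, *CEBPB*). The sequences are RefSeq promoter windows on GRCh38.p14, each trimmed to the bases before the annotated exons, read 5′ to 3′ on the strand of the gene. The *MYB* stretch is chr6:135181058-135181307 on the plus strand, and the *RUNX1* stretch is chr21:34888700-34888949 on the minus strand, within the long annotated gene. The *CEBPA* stretch is chr19:33302565-33302784 on the minus strand, and the *CEBPB* stretch is chr20:50190580-50190733 on the plus strand. Capitals mark matches on either strand to the GC box (GGGCGG, or CCGCCC on the other strand) or to the core letters of a PU.1 site (GAGGAA, or TTCCTC on the other strand), and no 2 of the marked matches overlapped.
MYB: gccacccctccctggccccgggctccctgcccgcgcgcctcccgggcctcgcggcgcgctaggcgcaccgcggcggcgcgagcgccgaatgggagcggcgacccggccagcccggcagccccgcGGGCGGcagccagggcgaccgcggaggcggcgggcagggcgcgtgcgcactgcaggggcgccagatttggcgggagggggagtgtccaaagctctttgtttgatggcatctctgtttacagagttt
RUNX1: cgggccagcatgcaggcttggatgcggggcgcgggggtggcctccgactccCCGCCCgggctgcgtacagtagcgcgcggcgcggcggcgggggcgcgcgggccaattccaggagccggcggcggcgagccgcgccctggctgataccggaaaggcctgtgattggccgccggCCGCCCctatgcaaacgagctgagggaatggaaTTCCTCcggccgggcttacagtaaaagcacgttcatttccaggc
CEBPA: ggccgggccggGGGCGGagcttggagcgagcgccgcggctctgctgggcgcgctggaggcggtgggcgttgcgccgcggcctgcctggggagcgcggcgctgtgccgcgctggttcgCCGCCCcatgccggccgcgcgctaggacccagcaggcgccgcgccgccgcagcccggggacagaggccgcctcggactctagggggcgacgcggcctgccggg
CEBPB: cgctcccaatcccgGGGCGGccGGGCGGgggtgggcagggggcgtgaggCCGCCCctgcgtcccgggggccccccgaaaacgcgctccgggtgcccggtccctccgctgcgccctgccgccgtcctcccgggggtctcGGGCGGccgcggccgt

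All 4 stretches held GC boxes, 1 in *MYB*, 2 in *RUNX1*, 2 in *CEBPA* and 4 in *CEBPB*, and that of *RUNX1* held the only PU.1 letters among them. Of the 10 genes, 8 had RefSeq windows of 300 bases (250 before and 50 after a start), 12 windows in all. Some genes had several windows, so the 12 are not separate genes. GC box letters occurred in 9 of the 12 windows (6 of the 8 genes) and in 45.0% of the 35116 windows of all genes. The GC content of these 9 windows was 59.7% to 80.7%, against a median of 58.7% over all windows, and the comparison was not adjusted for it. PU.1 letters occurred in 5 of the 12 windows (5 of the 8 genes) and in 27.9% of all windows. The shares over all genes count windows, so the counts of genes in brackets have no such background. The letters of a C/EBP site (TTGCNNAA) were found in 1 of the 12 windows, at *GFI1*, against 10.5% of all windows. RUNX letters (TGTGGT) were found in 2, at *GFI1* and *IRF8*, against 13.1%. STAT letters (TTCNNNGAA) were found in 1 window, at *CEBPE*, against 7.66%, and E2F letters (TTTNNCGC) in 1, at *GFI1*, against 6.89%. Not all of these matches lie upstream of the annotated gene. The *CEBPE* window starts from a site 361 bases inside the gene, with no base before the annotated exons. The *IRF8* window has 109 such bases, and its RUNX match lies past them. The E2F match follows a start 3062 bases inside *GFI1*. Of the 5 PU.1 matches, those at *GFI1*, *MYB* and *CEBPE* lie past the bases before the annotated exons. Those at *KLF4* and *RUNX1* precede starts 713 and 1115968 bases inside the gene. Such a match is a description of letters and does not show that a factor binds there.

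All 10 genes had enough counts to be tested with edgeR's quasi-likelihood test, in which the Benjamini-Hochberg adjustment ran over 11973 genes and a gene was called at an adjusted p below 0.05. *CEBPB*, *CEBPD*, *RUNX1* and *CEBPA* were higher in the WNK463 group, *IRF8* and *MYB* were lower, and *SPI1*, *GFI1*, *CEBPE* and *KLF4* were not called. That is 4 of 10 higher and 2 of 10 lower, where 35.5% of all tested genes were called higher and 35.3% lower. The transcriptome differed widely between the groups, so these shares are near the background. None of the 10 differed by 1 or more on the log2 scale while passing the test, which 15.2% of tested genes did. In CPM (counts per 1000000 of the library size, scaled by TMM, a method that sets the scale by the bulk of genes), the groups did not overlap for 8 of the 10, against 73.5% of tested genes. The median log2 fold change was 0.09 over the 10 genes and 0.02 over all tested genes.

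How the libraries are scaled matters for small differences. Scaled by total counts, the median of all tested genes moved to 0.17, a shift of 0.15 on the log2 scale, and 63.9% of the calls were higher, against 50.2% with TMM (4251 higher and 4222 lower). With limma on log2(TPM + 1), where TPM is transcripts per 1000000, a level that takes transcript length into account, 65.6% of the calls were higher. Under these scalings the 4 higher genes stayed higher and the 2 lower genes stayed lower, while *SPI1* and *GFI1*, near 0 with TMM, took the shift of the median gene. Both scalings move the median gene up, so they put only the 2 lower genes to a test and could not turn the 4 higher ones. The TMM value of *CEBPA*, 0.18, was near the size of that shift, and no scaling that moves genes down by as much was run.

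**Figure D1:**
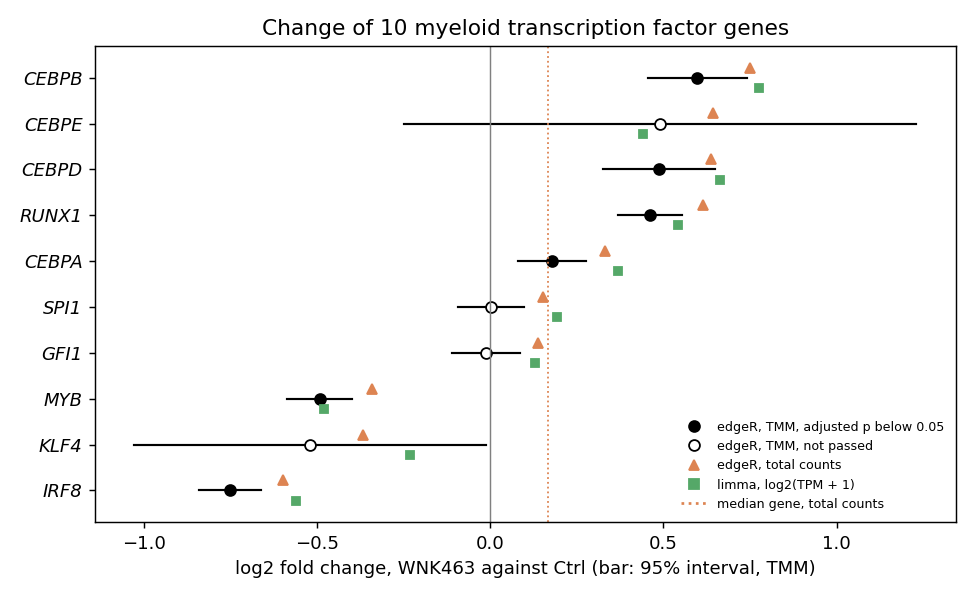
Log2 fold change of each of the 10 genes, WNK463 against Ctrl (3 samples each): circles with bars are edgeR values with TMM and their 95% intervals (filled where the adjusted p was below 0.05), triangles are edgeR values scaled by total counts, squares are limma values on log2(TPM + 1), and the dotted line is the median gene under total counts. *IRF8* lay lowest at -0.75 and *CEBPB* highest at 0.60, and the intervals of *CEBPE* and *KLF4* were the widest.

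*SPI1* (ENSG00000066336, GRCh38 chromosome 11, 47354860 to 47378576, minus strand) encodes PU.1, the ETS family factor on which myeloid cells depend. Its CPM was 220.0, 220.8 and 213.5 in the Ctrl samples and 214.1, 218.1 and 223.0 in the WNK463 samples. The groups overlapped, and the log2 fold change of 0.002 had a 95% interval of -0.09 to 0.10 (SE 0.05, adjusted p = 0.97). In TPM the same gene read 296.8 ± 5.25 (SD, n = 3) in Ctrl and 339.3 ± 7.16 in WNK463, with no overlap. Scaled by total counts its log2 fold change was 0.15 (adjusted p = 0.0049), and with limma on log2(TPM + 1) it was 0.19 (adjusted p = 0.018), so the call for *SPI1* depended on the scaling. Relative to the median gene it differed by -0.014 on the log2 scale with either TMM or total counts. These 2 values must be nearly equal, because a change of scale moves all genes alike. With limma on log2(TPM + 1) the same difference was 0.031.

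The C/EBP genes encode leucine zipper factors that pair with each other. *CEBPA* (ENSG00000245848, chromosome 19, 33299934 to 33302564, minus strand, a single exon), needed to form granulocyte and monocyte progenitors, had CPM values of 243.1, 241.1 and 237.1 in Ctrl and 265.0, 267.4 and 284.2 in WNK463. Every treated sample lay above every control, and the mean was 13.2% higher (log2 fold change 0.18, SE 0.05, adjusted p = 0.0022). *CEBPB* (ENSG00000172216, chromosome 20, 50190734 to 50192689, plus strand, a single exon), a factor of macrophages and of emergency granulopoiesis, had CPM values of 31.66, 29.01 and 30.43 in Ctrl and 45.78, 44.77 and 47.56 in WNK463. The groups were far apart, 1.51-fold on average (log2 fold change 0.60, 95% interval 0.45 to 0.74, adjusted p = 4.1e-07), and this was the largest increase among the 10 genes. *CEBPD* (ENSG00000221869, a single exon), an inflammation-responsive member of the family, had CPM values of 21.68, 24.14 and 23.24 in Ctrl and 32.25, 32.79 and 31.66 in WNK463. Its groups also stood apart, 1.40-fold on average (log2 fold change 0.49, SE 0.08, adjusted p = 1.8e-05).

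*CEBPE* (ENSG00000092067, chromosome 14, 23117304 to 23119616, minus strand), which drives the late steps of granulocyte maturation, was barely detected. It had 18, 12 and 18 counts in Ctrl and 19, 19 and 32 counts in WNK463, and the sample with 32 counts was WNK463-3. The fitted log2 fold change of 0.49 had a 95% interval of -0.25 to 1.23 (adjusted p = 0.22), and without WNK463-3 it was 0.15 (adjusted p = 0.75). A difference in *CEBPE* was thus not detected, and the interval leaves its size and direction undecided. The antisense genes that overlap exons of *CEBPA* (by up to 541 bases) and *CEBPB* (by 231 bases) were not in the table, and the strand setting of the libraries is not given in the sources used here, so reads of these pairs cannot be told apart.

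*IRF8* (ENSG00000140968, chromosome 16, 85898803 to 85922609, plus strand), the interferon regulatory factor that directs progenitors to monocytes and dendritic cells, showed the largest called decrease of the 10 genes. Its counts were 12985, 11226 and 12871 in Ctrl and 7606, 7964 and 7388 in WNK463, which is 790.6, 770.0 and 784.9 CPM against 459.3, 463.0 and 471.7 CPM. The treated samples were all far below the controls, and the mean fell by 40.6% (log2 fold change -0.75, SE 0.04, 95% interval -0.84 to -0.66, adjusted p = 3.8e-11). By p, *IRF8* ranked 349 among the 11973 tested genes. It was nevertheless still the most abundant of the 10 transcripts after treatment, and its TPM exceeded that of 97.3% of tested genes, against 98.1% in Ctrl.

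*KLF4* (ENSG00000136826, chromosome 9, 107484852 to 107490482, minus strand), a zinc finger factor of monocyte differentiation, was low in both groups. It had 52, 59 and 51 counts in Ctrl and 32, 41 and 45 counts in WNK463. The CPM groups did not overlap (3.441 ± 0.525 in Ctrl and 2.396 ± 0.470 in WNK463), but the TPM groups did, and the log2 fold change of -0.52 had a 95% interval of -1.03 to -0.01 and an adjusted p of 0.063. The call turned on the filter and on a single sample: with at least 10 counts in every sample required it was -0.50 (adjusted p = 0.048), and without WNK463-3 it was -0.67 (adjusted p = 0.044).

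*GFI1* (ENSG00000162676, chromosome 1, 92474762 to 92486876, minus strand), the repressor that favours neutrophils over monocytes, had CPM values of 216.8, 231.2 and 220.6 in Ctrl and 223.6, 222.4 and 216.6 in WNK463. The groups overlapped, and the log2 fold change was -0.012 with a 95% interval of -0.11 to 0.09 (adjusted p = 0.82). Its sign turned with the scaling, at 0.14 with total counts (adjusted p = 0.012) and 0.13 with limma on log2(TPM + 1) (adjusted p = 0.080). Relative to the median gene it was -0.028 with either TMM or total counts, which must nearly agree, and -0.031 with limma on log2(TPM + 1).

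*RUNX1* (ENSG00000159216, chromosome 21, 34787801 to 36004667, minus strand) encodes the DNA-binding subunit of core-binding factor, which is needed to form blood stem cells. Its CPM was 402.0, 394.5 and 400.7 in Ctrl and 569.2, 535.6 and 544.4 in WNK463. All treated samples were above all controls, 1.38-fold on average (log2 fold change 0.46, SE 0.04, adjusted p = 3.6e-08). *CBFB*, the other subunit of the same complex, was at 167.4 CPM in Ctrl and 164.2 CPM in WNK463 (log2 fold change -0.03, adjusted p = 0.62).

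*MYB* (ENSG00000118513, chromosome 6, 135181315 to 135219173, plus strand) encodes a factor that keeps progenitors dividing. Its CPM was 453.7, 475.6 and 477.8 in Ctrl and 336.9, 338.1 and 325.4 in WNK463. The groups did not overlap, and the mean fell by 28.9% (log2 fold change -0.49, SE 0.04, 95% interval -0.59 to -0.40, adjusted p = 1.9e-08). The gene overlaps an exon of *MYB-AS1* on the other strand by 103 bases.

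**Figure D2:**
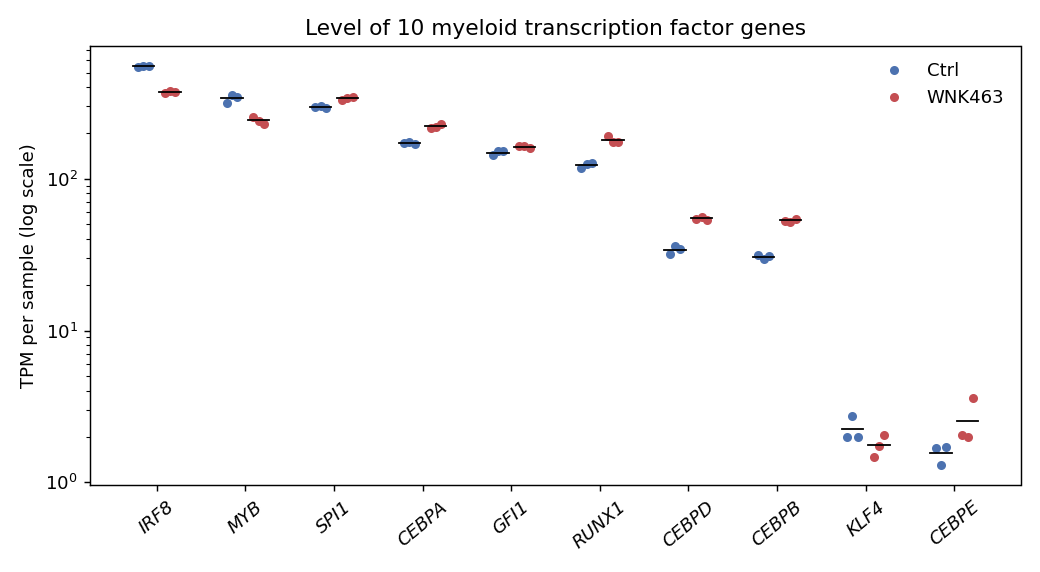
TPM of each of the 10 genes in every sample, on a log axis, with Ctrl and WNK463 samples as points and the group mean as a line. *IRF8* was highest in both groups, at 550.2 in Ctrl and 372.6 in WNK463, while *KLF4* and *CEBPE* stayed below 4 TPM in every sample.

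Levels between genes were compared in TPM. In Ctrl the order was *IRF8* (550.2), *MYB* (337.2), *SPI1* (296.8), *CEBPA* (171.7), *GFI1* (148.2), *RUNX1* (123.3), *CEBPD* (34.16), *CEBPB* (30.66), *KLF4* (2.237) and *CEBPE* (1.567), and the sample ranges of neighbours in this order did not overlap. In WNK463 it was *IRF8* (372.6), *SPI1* (339.3), *MYB* (241.7), *CEBPA* (222.3), *RUNX1* (180.1), *GFI1* (162.4), *CEBPD* (54.69), *CEBPB* (53.16), *CEBPE* (2.55) and *KLF4* (1.754). *SPI1* stood above *MYB* and *RUNX1* above *GFI1* only after treatment. The ranges of *CEBPD* and *CEBPB*, and those of *CEBPE* and *KLF4*, overlapped in WNK463, so these neighbours did not differ beyond their spread there.

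The summed TPM of the 10 genes was 1656 to 1726 in Ctrl and 1628 to 1632 in WNK463, so the composition moved more than the total. *IRF8* made up 32.4% ± 0.568 (SD, n = 3) of the sum in Ctrl and 22.9% ± 0.378 in WNK463, and *MYB* made up 19.9% ± 0.807 and 14.8% ± 0.695. The share of *RUNX1* was 7.3% in Ctrl and 11% in WNK463. Together the 4 C/EBP genes took 14% ± 0.21 of the sum in Ctrl and 20.4% ± 0.548 in WNK463, most of it from *CEBPA*.

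**Figure D3:**
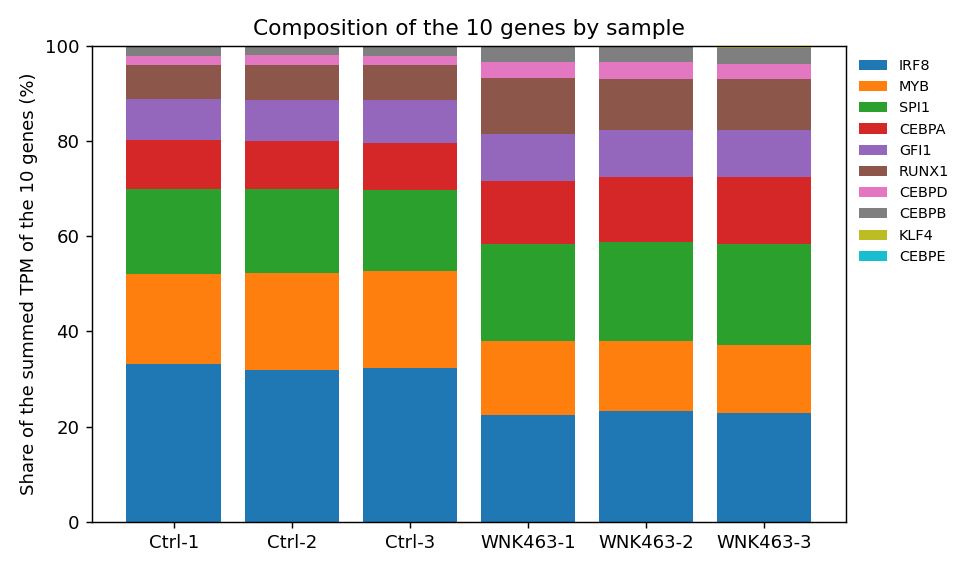
Share of the summed TPM of the 10 genes taken by each gene, in percent, 1 bar per sample. The *IRF8* share was between 31.9% and 33% in the Ctrl samples and between 22.4% and 23.2% in the WNK463 samples, and the *RUNX1* and C/EBP segments were wider in the WNK463 samples.

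A ratio of 2 genes within a sample does not depend on how libraries are scaled. The *IRF8* to *GFI1* ratio of TPM was 3.85, 3.64 and 3.65 in Ctrl and 2.24, 2.31 and 2.33 in WNK463, a difference of -0.69 on the log2 scale. The *SPI1* to *MYB* ratio was 0.943, 0.857 and 0.847 in Ctrl and 1.3, 1.42 and 1.49 in WNK463, a difference of 0.67 (0.49 when taken from CPM). Ratios from TPM and CPM differ by construction through the transcript lengths used in the quantification. Centred on the median gene shift, that length moved by 0.181 on the log2 scale for *MYB* and by 0.002 for *SPI1*. The *CEBPB* to *CEBPA* ratio was 0.184, 0.17 and 0.182 in Ctrl and 0.244, 0.237 and 0.237 in WNK463, a difference of 0.42. In all 3 pairs the groups did not overlap, and the exact two-sided permutation test gave p = 0.10 for each (0.10 after Benjamini-Hochberg adjustment over the 3 pairs), the smallest value that 3 against 3 samples allow.

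Count divided by TPM is proportional to the average transcript length used in the quantification, and a shift in it between groups means that another mixture of annotated transcripts was assigned. *MYB* has 42 annotated transcripts of 343 to 3672 bases, and its length relative to the Ctrl mean was 1.026, 0.975 and 0.999 in Ctrl and 1.089, 1.163 and 1.15 in WNK463. The WNK463 samples were all longer, by 13.4% on average, more than the absolute shift of 90.5% of the 11150 genes compared. Centred on the median gene shift, the log2 difference of 0.18 had an adjusted p of 0.096 with limma, and 1.87% of genes were called. Centred on the median of each sample, it was 0.15 (adjusted p = 0.034), where 30.5% of genes were called, among them *CEBPA*, *CEBPB*, *CEBPD* and *CEBPE*, which have a single annotated transcript and cannot shift. Their shift of -0.028 is an offset of that centring. With each of the 6 samples left out in turn, the *MYB* value was between 0.14 and 0.18 (adjusted p between 0.057 and 0.10).

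*RUNX1*, with 17 annotated transcripts of 251 to 7274 bases, was 7.8% longer in WNK463 (relative lengths of 1.036, 0.982 and 0.983 in Ctrl and 1.058, 1.087 and 1.09 in WNK463), but this was not called under either centring (adjusted p = 0.16 and 0.070). *GFI1* was 3.5% longer and was not called (adjusted p = 0.38 and 0.50). *IRF8*, *KLF4* and *SPI1* lay within 0.7% of no shift with centring on the median gene shift.

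**Figure D4:**
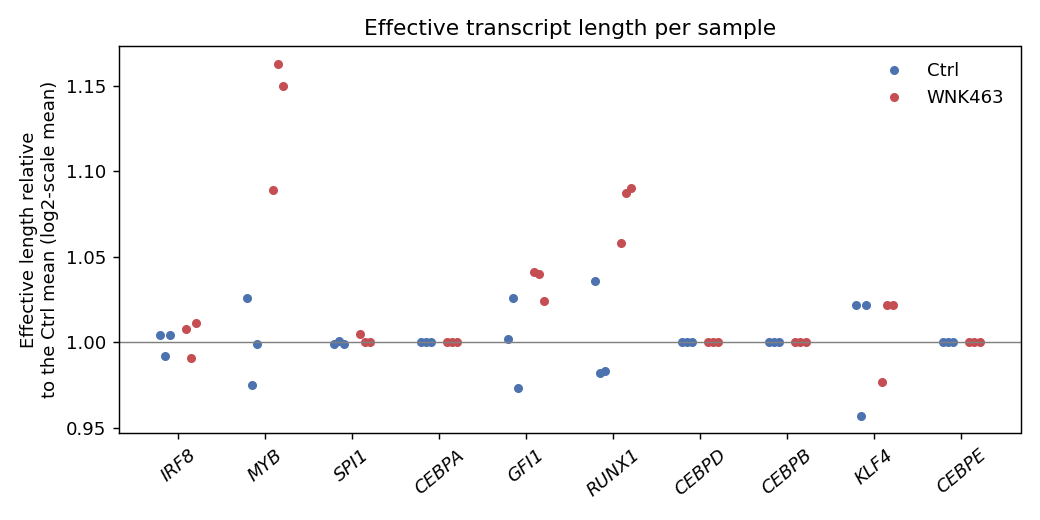
Effective transcript length (count divided by TPM, centred on the median gene shift) of each gene in every sample, relative to the log2-scale mean of Ctrl. *MYB* reached 1.089 to 1.163 in the WNK463 samples, and the single-transcript C/EBP genes stayed at 1.

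Genes of the same families were examined as 17 relatives, of which 15 were tested, 9 were higher, 4 were lower and 2 were not called (median log2 fold change 0.26). The counts of this and the later lists stand beside 35.5% of all tested genes called higher and 35.3% called lower. *MYBL2*, a cell cycle relative of *MYB*, went from 345.3 to 67.47 CPM (log2 fold change -2.36, adjusted p = 7.1e-16). *IRF4*, the closest relative of *IRF8*, was also lower, from 65.13 to 37.24 CPM (log2 fold change -0.81, adjusted p = 1.9e-09). *RUNX2* rose with *RUNX1*, from 148.5 to 212.5 CPM (log2 fold change 0.52, adjusted p = 3.7e-08), and *KLF10* rose by 0.54 on the log2 scale (adjusted p = 1.2e-07). With scaling by total counts, 2 relatives were called lower in place of 4.

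Of 21 partners and modifiers of the 10 factors, 19 were tested, 9 were higher, 6 were lower and 4 were not called (median log2 fold change 0.17). *KDM1A*, the histone demethylase that GFI1 recruits, was lower, at 150.1 CPM in Ctrl and 92.47 CPM in WNK463 (log2 fold change -0.70, adjusted p = 1.0e-09). *TRIB1*, an adaptor that leads C/EBPα to degradation, was higher, at 11.74 and 24.91 CPM (log2 fold change 1.08, adjusted p = 6.0e-09). *NAB2*, a corepressor of EGR factors, was higher by 0.93, and *ID2*, an inhibitor of helix-loop-helix factors, was lower, with a log2 fold change of -0.93.

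Among 23 other transcription factors of blood cells, 18 were tested, 8 were higher, 5 were lower and 5 were not called (median log2 fold change 0.04). *HLX*, a homeobox factor of myeloid cells, rose from 25.65 to 54.33 CPM (log2 fold change 1.08), *NFE2* rose from 13.11 to 30.77 CPM (1.24), and *HOXA9*, a homeobox factor of leukemic self-renewal, rose from 53.47 to 87.96 CPM (0.72). *ETS2* fell from 277.0 to 172.1 CPM (-0.69), and *GATA2*, a factor of stem cells, from 8.197 to 4.73 CPM (-0.80). The adjusted p of these 5 genes was at most 0.0012, and the TPM groups of *GATA2* overlapped (4.731 in Ctrl and 3.257 in WNK463). With total counts 3 genes of this list were called lower in place of 5.

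The 10 receptors on the list, several of which are known targets of PU.1, C/EBP or RUNX1, were all tested, and 7 were higher, 2 were lower and 1 was not called (median log2 fold change 0.38). Over all tested genes 35.5% were called higher and 35.3% lower, and whether the receptors differ from that was not tested. *CSF1R*, the receptor for macrophage colony-stimulating factor, rose from 58.6 to 114.4 CPM (log2 fold change 0.97, adjusted p = 1.4e-09). *IL3RA* rose from 28.92 to 58.65 CPM (1.02), *CSF2RA* from 15.71 to 33.11 CPM (1.07) and *IFNGR1* from 41.06 to 78.83 CPM (0.94). *FLT3* (-0.20) and *TNFRSF1B* (-0.18) were lower, but with total counts no receptor was called lower, and in TPM the groups of both genes overlapped (179.6 and 178.1 for *FLT3*, 80.31 and 81.02 for *TNFRSF1B*).

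Marker genes of mature myeloid cells did not move in a single direction. The marker counts below stand beside 35.5% of all tested genes called higher and 35.3% called lower. Of 20 monocyte markers 14 were tested, with 7 higher, 4 lower and 3 not called (median log2 fold change 0.36), while their summed TPM went from between 2177 and 2298 to between 1221 and 1237. *LYZ*, the lysozyme gene, held most of that sum in Ctrl and fell from 1355 to 290.9 CPM (log2 fold change -2.22, adjusted p = 2.8e-16), and *MNDA* also fell (-2.39). *CD36*, a scavenger receptor, rose from 66.02 to 230.0 CPM (1.80), *ITGAX* from 6.986 to 18.11 CPM (1.38), and *FCGR2A* from 73.0 to 134.0 CPM (0.88). *CD14* was at 0.139 TPM in Ctrl and 0.468 TPM in WNK463, and *CD163*, *MRC1* and *VCAN* were at 0 in every Ctrl sample, so several defining markers of mature monocytes and macrophages were absent or nearly so. In all, 6 of the 20 markers were below 1 TPM in every sample. Others were well detected, among them *CD68* (226.3 TPM in Ctrl and 207.3 TPM in WNK463), *FCGR1A* (68.86 and 76.02) and *TLR2* (70.29 and 101.2).

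Of 18 granulocyte markers 12 were tested, with 5 higher, 6 lower and 1 not called (median log2 fold change -0.27). The granule protease genes *PRTN3* and *ELANE*, known C/EBP and MYB targets, fell from 794.9 to 326.7 CPM (-1.28, adjusted p = 4.7e-13) and from 226.0 to 98.54 CPM (-1.20, adjusted p = 1.4e-12), and *FUT4* fell from 168.3 to 101.3 CPM (-0.73). *MMP9*, the gelatinase of late granules, rose from 0.4621 to 5.755 CPM (3.61), and *FPR1* from 0.4876 to 3.326 CPM (2.76). In Ctrl, *MMP9* had only 10, 6 and 6 counts, *FPR1* had 7, 8 and 8, and *CAMP*, also called higher, had 0, 3 and 1. These genes passed the filter on low counts through the WNK463 group, so their part in the 5 higher calls depends on that group and their fold changes are imprecise. *LTF*, *MMP8*, *CEACAM8* and *OLFM4* had no counts in any sample.

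Of 13 genes listed as progenitor markers 9 were tested, with 3 higher and 6 lower (median log2 fold change -0.23). With scaling by total counts 4 were called lower in place of 6. The tested genes included *MYC*, *BCL2*, *CCNB1*, *CDK6* and *KMT2A*, which are not particular to progenitors. *MSI2* fell in CPM, from 35.46 to 16.75 (-1.08), *KMT2A* from 295.8 to 195.8 CPM (-0.59) and *EGFL7* from 33.4 to 22.39 CPM (-0.58), while *SOX4* (0.34) and *CDK6* (0.30) rose. In TPM the *MSI2* groups overlapped, at 21.294, 15.442 and 14.923 in Ctrl and 35.02, 9.525 and 7.261 in WNK463, and WNK463-1 stood above every control. *CD34* was at or below 0.05 TPM in every sample, and *PROM1* and *SPINK2* had no counts in any sample.

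**Figure D5:**
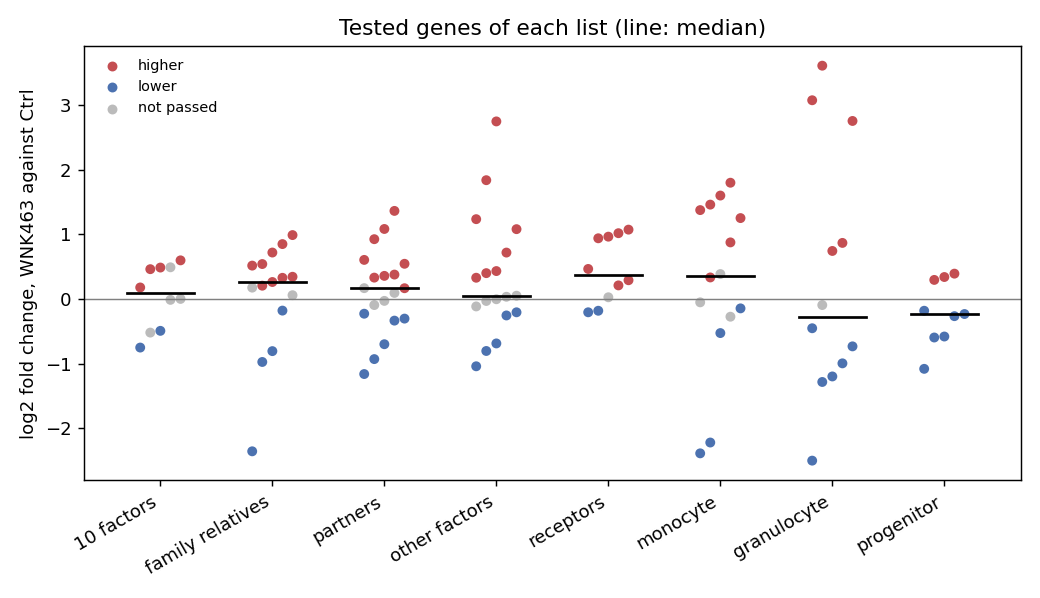
Log2 fold change of every tested gene in the 10 factors and in the lists of relatives, partners, other factors, receptors and monocyte, granulocyte and progenitor markers, WNK463 against Ctrl, coloured by the edgeR call, with the list median as a line. Each of the 8 sets plotted held genes on both sides of 0, and the medians lay between -0.27 (granulocyte) and 0.38 (receptors).

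Markers of other cell types were few. Summed TPM was 7.918 to 9.751 in Ctrl and 2.7 to 2.786 in WNK463 for 8 B cell markers, with 2 tested (*IGLL1* lower, log2 fold change -3.79, *PAX5* higher, 0.95) and *MS4A1* and *VPREB1* at 0. It was 0.482 to 0.803 and 0.574 to 1.2 for 7 T and NK cell markers, of which only *NCAM1* was tested (-1.32, with overlapping TPM groups) and *CD3D* and *CD3G* were at 0. For 8 erythroid and megakaryocyte markers it was 19.84 to 22.5 and 38.78 to 40.39, with *ITGA2B* higher (1.38), *EPOR* not called, and *HBB*, *HBA1* and *PF4* among those at 0. For 8 epithelial, endothelial and fibroblast markers it was 63.13 to 63.97 and 100.7 to 105.3, with *PECAM1* (0.80) and *KRT8* (0.41) higher, *KRT18* lower (-0.68), and *EPCAM*, *KRT19* and *COL1A2* at 0. Most of that last sum was *PECAM1* (40.86 TPM in Ctrl and 79.82 TPM in WNK463), which is not particular to endothelial cells. In WNK463, *IGLL1* had 5, 5 and 1 counts and *NCAM1* had 9, 6 and 6, so both passed the filter on low counts through Ctrl. The part of the markers of other cell types in the values above was not tested. In bulk RNA, fewer cells of a kind and less RNA per cell cannot be told apart.

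The genes most like the 3 members with the largest absolute log2 fold change were found by Euclidean distance in log2 CPM, centred per gene, over the 6 samples. Closest to *IRF8* were *HSPD1* (distance 0.048), *POLE3* (0.049) and *SRRT* (0.056), with log2 fold changes of -0.74, -0.76 and -0.72. Closest to *CEBPB* were *LIMD2* (0.043), *UBE2H* (0.044) and *ZFYVE1* (0.05), with 0.60, 0.59 and 0.63. *KLF4*, with its low counts, had looser neighbours in *ZNF347* (0.146), *ZNF628* (0.237) and *IFI27L2* (0.256), with -0.50, -0.48 and -0.45. The 6 samples fall into 2 groups, so such a distance is small for any gene with a like difference between them.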

How the data were processed

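RNA of 3 untreated and 3 WNK463-treated MV4-11 samples was enriched for mRNA and sequenced on an Illumina NovaSeq X Plus. The submitters' processing notes name fastp, Bowtie2, HISAT2, StringTie, RSEM, DESeq2, edgeR and GRCh38, without versions or roles. The authors deposited estimated counts, rounded to whole numbers, for each gene in each sample, and the authors also deposited TPM values, which sum to 1000000 per sample. Their columns of group means, log2 fold changes and p-values were not used.

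Counts were tested here with edgeR 4.0.16 in R 4.3.3 (quasi-likelihood test, TMM factors, filterByExpr with its defaults, no replicate block), with Benjamini-Hochberg adjustment over 11973 genes. SE was taken as the size of the log2 fold change over the root of F, and ± is SD. Effective length was count divided by TPM, tested with limma 3.58.1 over 11150 genes with at least 10 counts in every sample. Centring on the median gene shift was added after seeing the data. Alternatives were DESeq2 1.42.0, total counts, other filters, limma on log2(TPM + 1) and log2(TPM + 0.1), a replicate block, and each sample left out. Procedures were tested on simulated data in which few genes changed, unlike here, so the dependence on scaling was not tested there.

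Groups came from the sample labels. Samples sharing a number did not deviate together (correlations of 0.019, -0.007 and -0.048), so the numbers were not taken as pairs. The 10 genes and the lists were chosen with earlier results of these data known. Named genes were the 10, up to 4 called genes per list with the smallest p and no overlap, up to 2 list genes called in the opposite direction, and the 3 nearest patterns of 3 members. *CBFB*, *AZU1*, *BCL6*, *EPOR*, *CD14*, *CD163*, *MRC1*, *VCAN*, *CD34* and markers at 0 were chosen after their values were seen. So were *CD68*, *FCGR1A*, *TLR2*, *MYC*, *BCL2* and *CCNB1*. Gene positions are from GENCODE 29, and 62 values have a count of 0 beside a TPM above 0.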

Additional observations from a re-analysis of the deposited data

How the results depend on the processing

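The calls for *CEBPA*, *CEBPB*, *CEBPD*, *RUNX1*, *IRF8* and *MYB* kept their direction and their side of the threshold under every alternative run. No scaling that moves genes down by as much as total counts move them up was run, so the 4 higher genes were tested less than the 2 lower ones. The cause was not tested for the changes that follow. The log2 fold change of *SPI1* was -0.008 with DESeq2, -0.013 with no filter on low counts, 0.154 with total counts, 0.192 and 0.193 with limma on log2(TPM + 1) and log2(TPM + 0.1), and -0.025 to 0.014 with a sample left out. That of *GFI1* was 0.139 with total counts, 0.004 with at least 10 counts in every sample, 0.131 and 0.132 with the 2 TPM settings, and -0.038 to 0.004 with a sample left out. That of *KLF4* was -0.501 with at least 10 counts in every sample and -0.668 to -0.388 with a sample left out. Of the 10 genes, 0 were higher and 0 lower once a log2 fold change of at least 1 was also required. With total counts 2 relatives, 3 other factors and 0 receptors were called lower, and 1 to 2 B cell markers were called higher with a sample left out. The replicate block left 4 of the 10 genes higher and 2 lower, and changed no other call among them. Effective length shifts with a sample left out were -0.028 to -0.021 for *SPI1*, -0.030 to -0.025 for *CEBPA*, *CEBPB* and *CEBPD*, -0.031 to -0.025 for *CEBPE*, -0.048 to 0.003 for *KLF4* and 0.137 to 0.182 for *MYB*. Centred on the median gene shift, a setting chosen after seeing the data whose construction takes out the offset of the sample medians, they were 0.002 for *SPI1*, 0.000 for the 4 C/EBP genes, 0.005 for *IRF8*, 0.010 for *KLF4* and 0.181 for *MYB*. The *SPI1* to *MYB* log2 ratio was 0.494 from CPM, which departs from the TPM value by construction, through the transcript lengths used in the quantification. *CEBPE* and *KLF4* had the lowest counts of the 10 genes and the widest intervals, and 3 samples per group limit the ratio tests.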

Other observations

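*AZU1*, *PRTN3* and *ELANE* encode granule proteins of immature granulocytes and lie beside each other on GRCh38 chromosome 19, at 825097 to 832018, 840960 to 848175 and 851014 to 856247. *PRTN3* fell from 794.9 to 326.7 CPM (log2 fold change -1.28) and *ELANE* from 226.0 to 98.54 CPM (-1.20), while *AZU1* was at 608.5 ± 38.4 CPM (SD, n = 3) in Ctrl and 570.6 ± 14.7 CPM in WNK463 (log2 fold change -0.09, adjusted p = 0.10 with edgeR's quasi-likelihood test). In TPM, *AZU1* was below *PRTN3* in each Ctrl sample (1122.468 to 1245.071 against 1468.386 to 1520.053) and above it in each WNK463 sample (1207.721 to 1277.196 against 648.734 to 728.722). *AZU1* was chosen after its values were seen, and the difference between their fold changes was not tested.

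*BCL6*, a transcriptional repressor, was named after its values were seen. It was higher in WNK463, at 2.723 CPM in Ctrl and 9.748 CPM in WNK463 (log2 fold change 1.84, adjusted p = 1.3e-07 with edgeR's quasi-likelihood test), and was low beside the 8 more abundant of the 10 factors.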
